A study of Mus musculus with 11 samples.

Results

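The transcripts of 9 proteins of endothelial cell junctions were followed in retinal vascular endothelial cells that had been sorted from mice with oxygen-induced retinopathy (OIR). The genes were Cldn5, Ocln, Tjp1, Cdh5, Jam2, F11r, Esam, Cgnl1 and Marveld2, chosen by name, and they are 9 of the 55359 genes counted in each sample. In this model of retinopathy, pups are first raised in high oxygen, and on return to room air the ischemic retina forms pathological vessels. All 11 mice were C57BL/6 mice that underwent the model. At postnatal day 12 (P12) they received an intravitreal injection of 0.5 µL, either of oncostatin M (OSM, a cytokine of the interleukin-6 family) at 100 ng/µL or of phosphate-buffered saline (PBS). At P17, a suspension of both retinas of each mouse was sorted for CD31+/CD45- cells, so that 1 sample is 1 mouse. OSM was given to 5 mice (mice 1 and 2 of litter 1, 5 and 6 of litter 2, and 9 of litter 3) and PBS to 6 (mice 3 and 4 of litter 1, 7 and 8 of litter 2, and 10 and 11 of litter 3). Each litter was a separate OIR run, so a litter and its run cannot be told apart, and litter 3 held a single OSM-treated mouse. The study's methods speak of PBS in contralateral eyes, but each mouse carries a single treatment in its label, and the groups here follow the label. Libraries held 26697990 to 56033479 reads counted on genes (median 32500202). Levels are given as CPM, the reads of a gene per 1000000 counted reads, scaled between libraries with TMM factors, and in these bulk samples fewer cells with a transcript and less RNA per cell cannot be told apart.

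Tight junctions and adherens junctions join neighbouring endothelial cells and, in brain and retina, seal the wall of the capillary against plasma proteins. Claudin-5 (Cldn5) forms the strands that close the cleft between the cells, with occludin (Ocln) beside it, and tricellulin (Marveld2) sits where the corners of cells meet. JAM-A (F11r), JAM-B (Jam2) and ESAM (Esam) are adhesion molecules of the immunoglobulin superfamily. VE-cadherin (Cdh5) is the cadherin of endothelial adherens junctions, and inside the cell ZO-1 (Tjp1) and paracingulin (Cgnl1) tie the membrane proteins to the actin cytoskeleton.

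In the GENCODE annotation of GRCm39, Cldn5 is a gene of 1 exon on chromosome 16 (18595597 to 18597012, plus strand), and Jam2 lies on the same chromosome (84570764 to 84623269, plus strand). Ocln (100630334 to 100689535) and Marveld2 (100732464 to 100753489) both lie on the minus strand of chromosome 13. Esam (37439344 to 37449615, plus strand) and Cgnl1 (71533791 to 71678884, minus strand) lie on chromosome 9, Tjp1 on chromosome 7 (64945898 to 65177529, minus strand), Cdh5 on chromosome 8 (104828231 to 104871143, plus strand) and F11r on chromosome 1 (171265092 to 171292958, plus strand). Exons of Jam2 share 485 of 11064 bases with Atp5pf on the opposite strand, and at the settings of the counting, reads that overlap both genes are counted for neither.

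The RefSeq table of promoters (GRCm38.p6) held 6 of the 9 genes, and Cdh5, Jam2 and Esam had no entry. The 250 bases before the start are printed for Cldn5, the most abundant of the 9 transcripts, and for Cgnl1, the gene whose OSM-treated mice were below their PBS-treated littermates in each litter, which was chosen for this after its values were seen. Capitals mark the GC box GGGCGG, searched on both strands, in sequences that run 5′ to 3′ along the gene.
Cldn5: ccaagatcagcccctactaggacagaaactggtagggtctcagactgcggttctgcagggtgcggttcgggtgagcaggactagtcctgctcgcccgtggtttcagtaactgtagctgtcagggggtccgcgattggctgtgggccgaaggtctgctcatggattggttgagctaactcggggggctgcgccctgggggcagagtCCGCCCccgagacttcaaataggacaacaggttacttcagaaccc
Cgnl1: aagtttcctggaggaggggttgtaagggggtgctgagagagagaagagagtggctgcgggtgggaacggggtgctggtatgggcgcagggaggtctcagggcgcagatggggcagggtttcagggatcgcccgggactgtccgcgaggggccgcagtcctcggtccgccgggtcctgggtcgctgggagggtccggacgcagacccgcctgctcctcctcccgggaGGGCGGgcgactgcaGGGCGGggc
In GRCm39 these windows lie at chr16:18595347-18595596 (plus strand) and chr9:71678885-71679134 (minus strand), directly before the annotated gene start. Of the Cldn5 window, 90 bases lie in annotated exons. The Cldn5 window has a GC content of 59.6% and the Cgnl1 window of 70.8%, against a median of 52.4% over all 32851 windows. The GC box was found 45 bases before the start of Cldn5 and 24 and 9 bases before that of Cgnl1. It occurred in windows of 6 of 6 of these genes and in 32.7% of all windows. The 6 genes have 8 windows, and a gene was counted if any of its windows held the letters. The shares of all windows are counted per window, so these counts and shares are in unlike units. The STAT-type motif TTCNNNGAA, searched because OSM receptors act through STAT proteins, was found in 0 of 6 against 7.02% of all windows, and the FOXO motif GTAAACA in 0 of 6 against 3.17%. The Snail-type E-box CAGGTG was present in Ocln and F11r (17.2% of all windows), the ETS motif CGGAAG in Tjp1 (13.6%) and TATAAA in Marveld2 (12.4%). A match of letters is no binding site, and a missing match says only that these letters are not in this window.

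The sorted cells contained the transcripts of all 9 genes in all 11 mice. To compare genes, CPM were divided by the length of the exons in kilobases. Cldn5 led with 3317 ± 413 CPM per kilobase (SD, n = 11), which was rank 7 of the 16962 tested genes with a known length. Esam followed with 729 ± 66.2 (rank 21), F11r with 161 ± 20.6 (rank 164) and Cdh5 with 90.4 ± 10.7 (rank 355). Lower levels per kilobase were measured for Tjp1 (36.3 ± 6.26), Ocln (27.3 ± 6.00), Jam2 (22.7 ± 4.76), Cgnl1 (22.3 ± 4.53) and Marveld2 (8.67 ± 3.21). The Cldn5 transcript alone took 0.470% of all reads.

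**Figure D1:**
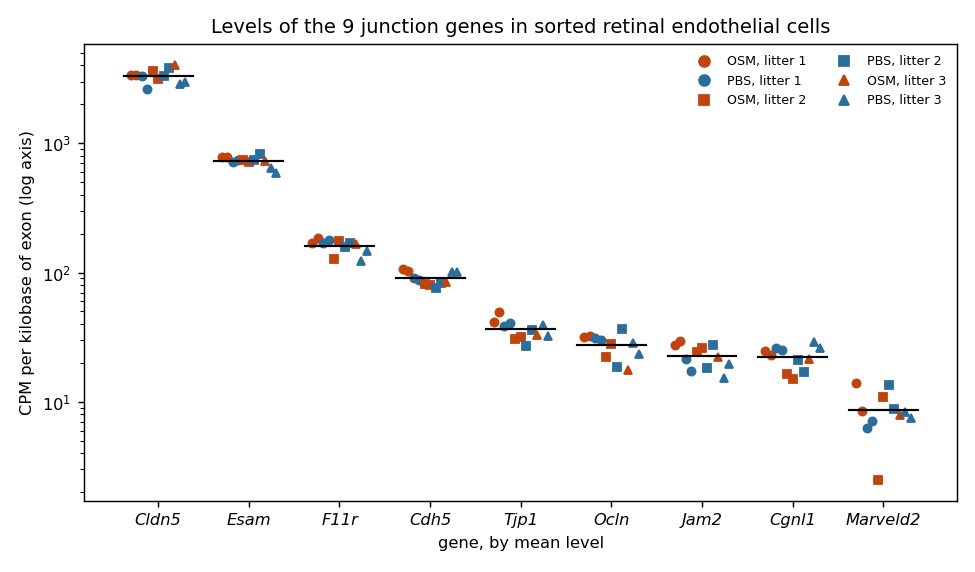
Level of each junction gene in CPM per kilobase of exon on a log axis, with 1 point per mouse, coloured by treatment and shaped by litter, and a bar at the mean of 11 mice. Cldn5, Esam, F11r and Cdh5 are separated from each other, whereas Tjp1, Ocln, Jam2 and Cgnl1 overlap.

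The order of the upper genes was the same in every mouse. Cldn5 was above Esam by 4.54-fold, Esam above F11r by 4.56-fold, F11r above Cdh5 by 1.77-fold and Cdh5 above Tjp1 by 2.50-fold (geometric means), each in 11 of 11 mice. With the length of the longest annotated transcript these pairs kept their order in 11 of 11 mice. Cldn5 was then above Esam by 2.94-fold and Esam above F11r by 6.73-fold. Tjp1 was above Ocln in 10 of 11 mice. Ocln was above Jam2 in 9 of 11 mice (log2 ratio 0.266 ± 0.378, SD) and Jam2 above Cgnl1 in 6 of 11 (0.0212 ± 0.553). Ocln and Cgnl1 were not compared mouse by mouse, and differences in level between genes were not tested. The order of Tjp1, Ocln, Jam2 and Cgnl1 also depends on the length used. With the longest annotated transcript, Jam2 reached a mean of 46.3 CPM per kilobase, above the 40.1 of Tjp1. Ocln was then above Jam2 in 2 of 11 mice, and Jam2 was above Cgnl1 in 10 of 11 mice by 1.88-fold. Marveld2 was below Cgnl1 in 11 of 11 mice.

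Within the families described here, 1 member held most of the transcripts. Cldn5 made up 99.9% of the claudin signal per kilobase (range over mice 99.7% to 100.0%). The annotation named 36 claudin genes, of which 19 had 0 reads in all mice and 3 had reads in every mouse. After Cldn5 these were Cldn12 with 1.99 ± 1.01 CPM per kilobase and Cldn34c1 with 0.576 ± 0.148 (SD, n = 11). Cldn3 had 2 reads in a single mouse and Cldn1 had 52 reads in 3 mice. For the junctional adhesion molecules, F11r held 86.6% of the signal, Jam2 12.2% and Jam3 1.18%. The ZO-3 gene, Tjp3, had 0 reads in all mice. A count of 0 allows up to 0.0535 to 0.112 CPM per library, as the value of 3 reads, which covers counting error only. Cgnl1 held 99.8% of the cingulin signal, and its paralog Cgn had 102 reads in 2 mice. Ocln held 75.9% against Marveld2 with 24.0%, and Marveld3 had 27 reads in 2 mice. Of VE-cadherin, N-cadherin and E-cadherin, Cdh5 held 75.4% and Cdh2 24.6%, whereas Cdh1 had 4 reads in 2 mice.

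Of the partners of VE-cadherin inside the cell, β-catenin (Ctnnb1) had 119 CPM per kilobase, α-catenin (Ctnna1) 90.1 and plakoglobin (Jup) 56.3, beside 90.4 for Cdh5. p120-catenin (Ctnnd1), which holds the cadherin at the membrane, had 2.83 (33.7 CPM before division by length). Exon overlaps with other genes, whose shared reads are dropped, were looked up for the 9 genes only. The longest transcript was also used as length for the 9 only. The part of overlap or length in the Ctnnd1 value was not tested. The phosphatase VE-PTP (Ptprb) had 91.4, nectin-2 (Nectin2) 56.4 and the nectin-binding protein afadin (Afdn) 14.3 CPM per kilobase.

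Endothelial markers were present in each library: the 10 listed summed to 10050 to 16520 CPM. Among them, Pecam1, the gene of the CD31 used in the sort, had 916 to 1820 CPM. The 7 leukocyte markers summed to 0.287 to 13.3 CPM. Epithelial markers matter because epithelium also uses occludin, ZO-1 and tricellulin, and the 8 listed summed to 1.34 to 14.8 CPM. Best1 (mean 4.26, at most 10.4 CPM) and Krt18 (mean 2.42, at most 13.6 CPM) were the highest of them. Lrat had 0 reads, Epcam at most 0.115 CPM and Cdh1 at most 0.114 CPM. The 8 mural markers summed to 334 to 752 CPM with OSM and 260 to 1557 with PBS. The 6 Müller glia markers summed to 187 to 429 CPM and the 5 platelet markers to 4.26 to 18.5. Glul made up most of the Müller glia sum (mean 237, 159 to 279 CPM). Dkk3 had the next highest mean of these, 17.2 CPM, and Aqp4 the lowest, 0.457 CPM. The 5 erythroid markers summed to 359 to 1129 CPM with OSM and 117 to 596 with PBS, each with an unadjusted p under 0.05 in edgeR, and their part in the results below was not tested. Rod markers summed to 5686 CPM in OSM-treated mouse 5 and to 209 to 1869 in the other mice. PBS-treated mouse 3 had the most genes with a read, 20898 against 16635 to 17697 in the others. The comparison between OSM and PBS was therefore also fitted without mice 3 and 5, a choice made after seeing the data.

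Variation between mice was small for the most abundant transcripts. The coefficient of variation over 11 mice was 9.09% for Esam, 11.9% for Cdh5, 12.4% for Cldn5 and 12.9% for F11r, against a median of 16.6% over the 2133 tested genes with at least 100 CPM. That median was 44.8% over tested genes of any level, and the background was not matched to the level of each gene. The coefficient was 17.2% for Tjp1, 20.3% for Cgnl1 and 37.1% for Marveld2, with Jam2 and Ocln between the last 2.

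The main comparison asked whether an injection of OSM at P12 was followed by a different level of these transcripts at P17. None of the 9 passed the quasi-likelihood test of edgeR, in which litter was a term beside treatment. With an adjusted p under 0.05 as the threshold, 0 of the 9 were called, and 0 of 17050 genes tested (percent called 0.0). The lowest adjusted p of any gene was 0.92. At an unadjusted p under 0.05 there were 2 of the 9, Jam2 with a higher and Cgnl1 with a lower mean after OSM, beside 846 of all genes (4.96%). Without the filter on low counts, edgeR tested 28940 genes and called 65. DESeq2 gave a p-value for 28940 genes and called 168, but it adjusted only over the genes that its own filter on mean counts kept. Both again called 0 of the 9. The fitted log2 fold change was above 0 for 7 genes and below 0 for 2, with a median of 0.05 beside -0.01 over all genes tested.

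**Figure D2:**
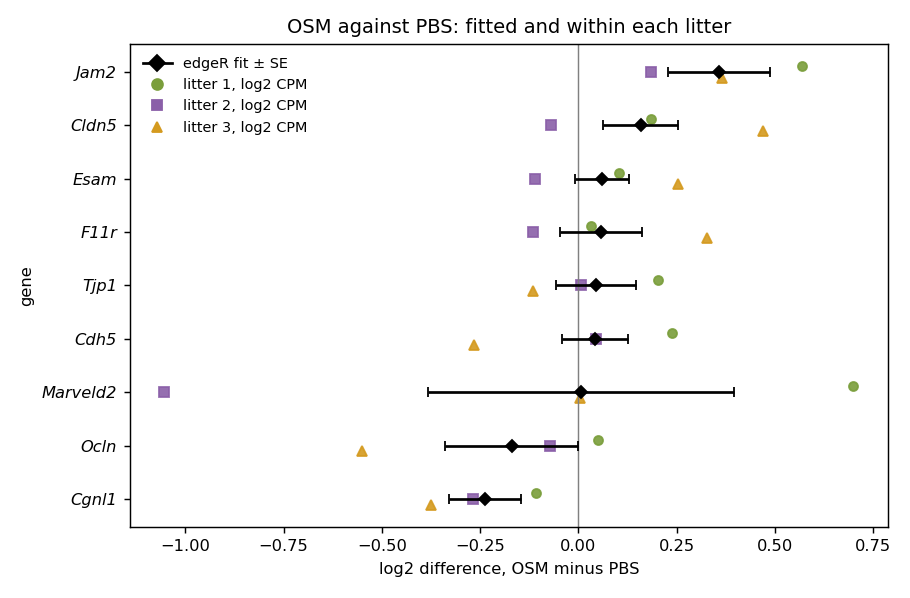
Log2 difference between OSM and PBS for each gene. Black diamonds are the edgeR estimates with litter as a term and bars their standard errors, and coloured symbols are the differences of mean log2 CPM in litter 1 (2 against 2 mice), litter 2 (2 against 2) and litter 3 (1 against 2). Jam2 lies above 0 and Cgnl1 below 0 in each litter, whereas the other 7 genes have litters on both sides of 0.

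Cldn5, the main claudin of the blood-retina barrier, had 4971 ± 483 CPM with OSM (SD, n = 5) and 4468 ± 599 with PBS (SD, n = 6). In litter 1 the OSM-treated mice had 4745 and 4762 CPM and the PBS-treated mice 4672 and 3750.0. In litter 2 the values were 5144 and 4479 with OSM and 4661 and 5448 with PBS. In litter 3 the OSM-treated mouse had 5724 CPM, the highest of all mice, and the PBS-treated mice 4030.0 and 4248. OSM-treated mice were thus above their PBS-treated littermates in litters 1 and 3 and overlapped with them in litter 2. The estimate was a log2 fold change of 0.16 ± 0.10 (SE; edgeR adjusted p = 0.984, unadjusted 0.124), with an interval of 2 SE from -0.03 to 0.35. It was 0.05 without OSM-treated mouse 9, and 0.22 without PBS-treated mouse 8 (unadjusted p = 0.0286 in edgeR), without OSM-treated mouse 6 (unadjusted p = 0.0387) and without mice 3 and 5. Without litter 2 it was 0.29 (unadjusted p = 0.0182 in edgeR, adjusted 0.804).

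Ocln, the tetraspan partner of claudin-5, had 247 ± 57.9 CPM with OSM (SD, n = 5) and 264 ± 59.1 with PBS (SD, n = 6). Litter 1 held 296 and 301 CPM with OSM and 292 and 284 with PBS. Litter 2 ranged more widely, with 209 and 261 CPM with OSM and 175 and 345 with PBS. In litter 3 the OSM-treated mouse had 166 CPM, the lowest of all mice, against 268 and 222. The groups were separated in opposite directions in litters 1 and 3. Over all mice the log2 fold change was -0.17 ± 0.17 (SE; edgeR adjusted p = 1.0). It was -0.05 without mouse 9, -0.01 without PBS-treated mouse 8 and -0.30 without PBS-treated mouse 7 (unadjusted p = 0.0509 in edgeR).

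Marveld2 was the least abundant of the 9 and the most variable. OSM-treated mice had 47.1, 28.8, 8.44, 37.2 and 27.1 CPM, and PBS-treated mice 21.5 to 45.6 (median 27.0). The value of 8.44 CPM belonged to OSM-treated mouse 5, which had 248 reads of this gene and the highest rod markers, and the part of these markers in the value was not tested. With such a spread, the log2 fold change was 0.01 ± 0.39 (SE; edgeR adjusted p = 1.0) with all mice. It was 0.32 without mouse 5, 0.21 without mice 3 and 5, 0.45 without litter 2 and -0.43 without litter 1.

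Jam2, which pairs with JAM-C on neighbouring cells, had 288 ± 31.3 CPM with OSM (SD, n = 5) and 220 ± 46.9 with PBS (SD, n = 6). In litter 1 the OSM-treated mice had 306 and 327 CPM and the PBS-treated mice 238 and 191. In litter 2 there were 270.2 and 291 CPM with OSM, and 201 and 302 with PBS. In litter 3 the values were 246 with OSM and 168 and 217 with PBS. The mean was higher with OSM in each litter, and only PBS-treated mouse 8 broke the separation of the groups within litters. The log2 fold change was 0.36 ± 0.13 (SE), a fold of 1.28, with an unadjusted p of 0.0196 and an adjusted p of 0.955 in edgeR. A two-sided exact permutation test over the 108 splits of the mice that keep the number of each treatment in each litter gave p = 0.0556 for the mean difference of 0.37. Without PBS-treated mouse 8 the estimate was 0.48 and the unadjusted p in edgeR 0.00107 (adjusted 0.72). Without mice 3 and 5 it was 0.43, and without litter 1 it was 0.24. The paralog Jam3 was low, with 17.1 ± 4.05 CPM with OSM (SD, n = 5) and 13.1 ± 2.43 with PBS (SD, n = 6) and a log2 fold change of 0.42 ± 0.27 (SE; edgeR adjusted p = 0.994).

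F11r had 572 ± 77.1 CPM with OSM (SD, n = 5) and 542 ± 70.5 with PBS (SD, n = 6). The OSM-treated mice had 588, 640, 440.5, 612 and 580 CPM, with mouse 5 well below the other 4, and the PBS-treated mice 422 to 620 (median 561). Its log2 fold change was 0.06 ± 0.10 (SE; edgeR adjusted p = 1.0). It was 0.14 both without mouse 5 and without mice 3 and 5, and -0.04 without mouse 9. Esam had the smallest spread of the 9, with 2286 ± 89.2 CPM with OSM (SD, n = 5) and 2163 ± 258 with PBS (SD, n = 6). OSM-treated mice were above their PBS-treated littermates in litter 1 (2367 and 2393 against 2190.2 and 2240 CPM) and litter 3 (2233 against 1970 and 1784). In litter 2 they were below them (2248 and 2188 against 2261 and 2533). Its log2 fold change was 0.06 ± 0.07 (SE; edgeR adjusted p = 1.0), with an interval of 2 SE from -0.08 to 0.20.

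Cgnl1, the junctional adaptor paracingulin, was the gene whose groups were separated the same way in every litter. Its mean was 160.5 ± 32.9 CPM with OSM (SD, n = 5) and 193 ± 34.4 with PBS (SD, n = 6). In litter 1 the OSM-treated mice had 197 and 183 CPM and the PBS-treated mice 207 and 202. In litter 2 there were 132 and 121 CPM with OSM against 169 and 136 with PBS, and in litter 3 there were 170.1 with OSM against 234 and 208. Each OSM-treated mouse was thus below each of its PBS-treated littermates, which was seen in 1 of the 9 genes and in 295 of all 17050 (1.73%, both directions together). Litter 2 was lower than the others in both groups, so that the values overlapped when litters were pooled. The log2 fold change was -0.24 ± 0.09 (SE), a fold of 0.848, with an unadjusted p of 0.0252 and an adjusted p of 0.955 in edgeR, and DESeq2 gave an adjusted p of 0.214. The two-sided exact permutation test within litters gave p = 0.00926, which is the smallest that its 108 splits allow. With the groups separated the same way in every litter, no split could lie lower, so this p restates that separation. The share of all genes that reach it was not computed. Without the litter term the unadjusted p in edgeR was 0.123, and without mice 3 and 5 the log2 fold change was -0.27. Mural markers were also lower with OSM in litters 1 and 3, with summed levels of 394 and 334 CPM with OSM against 645 and 672 with PBS in litter 1, and 361 against 901 and 1557 in litter 3. In litter 2 they were 544 and 752 CPM with OSM and 1034 and 260 with PBS. Their part in the difference of Cgnl1 or Jam2 was not tested.

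Tjp1 had 295 ± 63.8 CPM with OSM (SD, n = 5) and 282 ± 39.5 with PBS (SD, n = 6), with a log2 fold change of 0.05 ± 0.10 (SE; edgeR adjusted p = 1.0). Its values were 329, 392, 244, 251 and 260.4 with OSM and 215 to 321 with PBS (median 293), and the groups overlapped in litters 2 and 3. Without mice 3 and 5 the log2 fold change was 0.02.

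Cdh5 had nearly equal means, 400 ± 54.9 CPM with OSM (SD, n = 5) and 392 ± 44.4 with PBS (SD, n = 6), but the sign of the difference was not the same in each litter. In litter 1 the OSM-treated mice had 467 and 453 CPM and the PBS-treated mice 396 and 383. In litter 2 all 4 mice lay between 331 and 361 CPM. In litter 3 the OSM-treated mouse had 368 CPM and the PBS-treated mice 445 and 438. The groups were therefore separated in opposite directions in litters 1 and 3, with log2 differences of 0.24 and -0.26, and the fitted log2 fold change over all litters was 0.04 ± 0.08 (SE; edgeR adjusted p = 1.0), with 0.01 without mice 3 and 5. The β-catenin gene had a log2 fold change of 0.04 ± 0.11 (SE; edgeR adjusted p = 1.0), with litter differences of 0.21, -0.01 and -0.12. Plakoglobin (-0.01), α-catenin (-0.00), p120-catenin (-0.04), N-cadherin (0.01) and nectin-2 (-0.05) had log2 fold changes as close to 0. Their SE ranged from 0.08 (nectin-2) to 0.21 (p120-catenin). For each of these genes the litters lay on both sides of 0, most widely for p120-catenin (-0.0679, 0.352 and -0.675 in litters 1, 2 and 3). Nectin3 had 58.2 ± 8.17 CPM with OSM (SD, n = 5) and 44.8 ± 15.9 with PBS (SD, n = 6; edgeR adjusted p = 1.0). Ptprb (-0.10 ± 0.15) and Afdn (-0.19 ± 0.12, log2 fold change ± SE) were not called either.

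**Figure D3:**
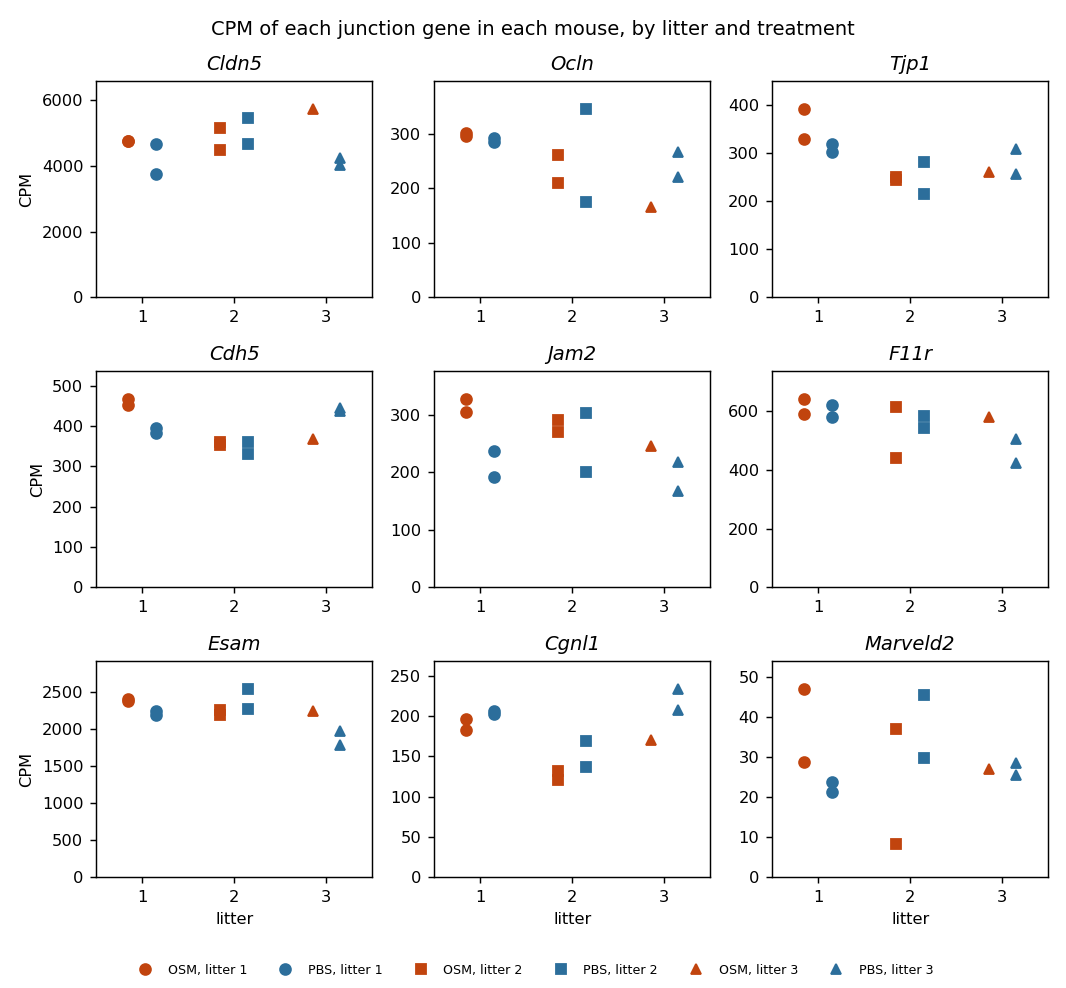
CPM of each junction gene in each of the 11 mice, by litter on the horizontal axis and treatment by colour, with vertical axes that start at 0. Cgnl1 is lower with OSM in each litter, and Cdh5 is separated in opposite directions in litters 1 and 3.

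Whether the difference between OSM and PBS depended on the litter was tested by the interaction of litter and treatment. With an adjusted p under 0.05, 0 of the 9 genes were called and 0 of all genes tested (percent called 0.0). At an unadjusted p under 0.05 there was 1 of the 9, Cdh5 (unadjusted p = 0.0402, edgeR adjusted p = 0.771), beside 6.42% of all genes. Cldn5 had an unadjusted interaction p of 0.0633 and Esam of 0.0834 in edgeR. Groups separated in opposite directions in at least 2 litters were seen in 3 of the 9 genes, Ocln, Cdh5 and Esam, and in 20.6% of all genes, with litter 3 holding a single OSM-treated mouse.

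The litters themselves were then compared. The test of the litter term, added after seeing the data, called 0 of the 9 genes at an adjusted p under 0.05, a threshold passed by 0.0176% of all genes. At an unadjusted p under 0.05 there were 3 of the 9, Cgnl1 (0.000894, adjusted 0.115), Tjp1 (0.0107, adjusted 0.291) and Cdh5 (0.0321, adjusted 0.435, all edgeR), beside 10.3% of all genes. Cgnl1 averaged 197 CPM in litter 1, 139.5 in litter 2 and 204 in litter 3. Tjp1 averaged 336.5, 248 and 276 CPM and Cdh5 425, 351 and 417, so all 3 genes had their lowest mean in litter 2. The endothelial markers summed to 15050 to 16520 CPM in litter 1, 10050 to 13420 in litter 2 and 12540 to 13010 in litter 3, and their part in these differences was not tested.

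Across the 11 mice, the levels of the 9 genes did not vary as 1 group. The median Pearson r over the 36 pairs of genes was 0.17 on the log2 CPM scale, from -0.57 (Jam2 with Cgnl1) to 0.75 (Tjp1 with Cdh5). Ocln and Tjp1 had an r of 0.71 (rho 0.74, and 0.62 without the 2 mice farthest from the median of Ocln). Cdh5 and Cgnl1 had an r of 0.69 (rho 0.73), and 0.37 once litter and treatment were removed. Cldn5 went with Jam2 (r = 0.61, rho 0.67) and Esam (r = 0.53, rho 0.58) and was not higher where Cdh5 was (r = -0.33, rho -0.13). These correlations are descriptions over mice that share litters and library depth, and no background from pairs of other genes was computed. Of the 8876 genes with at least 10 CPM that were compared, those most like Cldn5 were Gm17334 (r = 0.90), Mfsd5 (r = 0.90) and Fam110d (r = 0.89). Those most like Cdh5 were Ehbp1l1 (r = 0.92), Sf3b4 (r = 0.90) and Stra6 (r = 0.88). They are the highest of 8876 values over only 11 mice, and whether unrelated genes would reach as high was not tested.

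Beyond the 9 genes, 80 other genes of cell contacts were listed, of which 71 were tested. None was called by edgeR, and 7 had an unadjusted p under 0.05 (9.86% of those tested, beside 4.96% of all genes), each with the lower mean in OSM. The log2 fold change was above 0 in 25 and below 0 in 46, beside 8255 and 8795 of all genes tested. Its median was -0.10 beside -0.01 over all genes. Of all genes at an unadjusted p under 0.05 in edgeR, 384 had a log2 fold change above 0 and 462 below 0. In the tight junction list, 11 of 29 tested genes had the higher and 18 the lower mean with OSM. In the adherens junction list these were 8 and 22 of 30, and among 12 other genes of endothelial contacts 6 and 6. Of the 7 genes, 6 had the same sign in each litter, and the other, the talin gene Tln1 (log2 fold change -0.28 ± 0.10, SE), named here after its values were seen, did not.

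**Figure D4:**
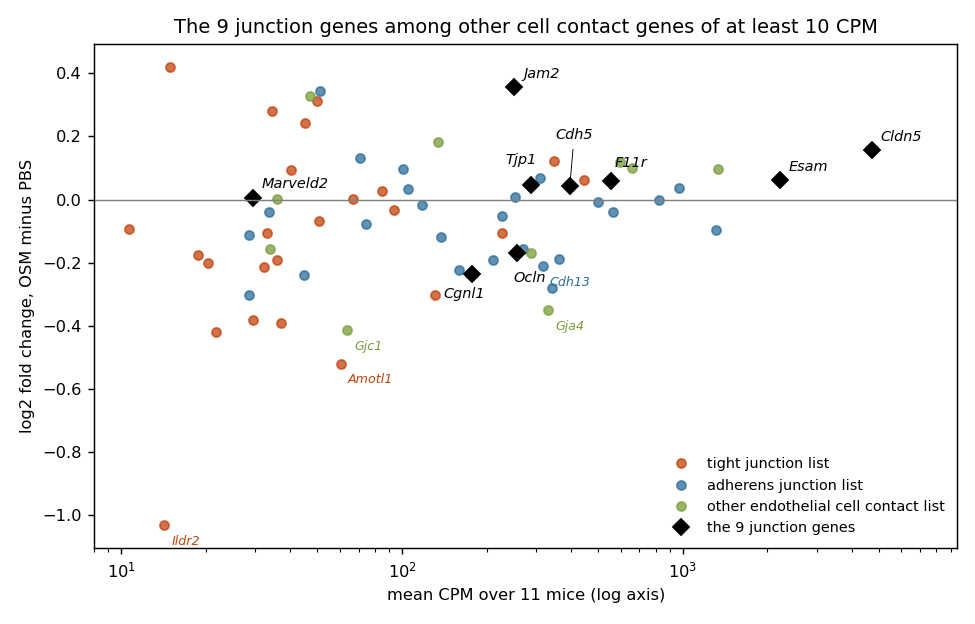
Log2 fold change between OSM and PBS against the mean CPM over 11 mice (log axis) for the 9 junction genes (black diamonds) and the 59 other tested contact genes with at least 10 CPM, coloured by list. The named coloured points, Ildr2, Amotl1, Gjc1, Gja4 and Cdh13, have an unadjusted p under 0.05 and the same sign in each litter, and all lie below 0.

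Ildr2, an angulin of tricellular junctions, where tricellulin is also found, had 9.23 ± 2.54 CPM with OSM (SD, n = 5) and 18.4 ± 4.76 with PBS (SD, n = 6). OSM-treated mice had 8.70, 12.6, 10.7, 8.24 and 5.92 CPM. PBS-treated mice had 23.0, 18.6, 20.8, 9.84, 16.7 and 21.6 CPM, so that the groups overlapped by PBS-treated mouse 8. The log2 fold change was -1.03 ± 0.31 (SE), with an unadjusted p of 0.00733 and an adjusted p of 0.955 in edgeR. DESeq2 gave an adjusted p of 0.0278, the only call of the 71 in any of the 22 alternative fits, and the lowest adjusted p of edgeR over its own alternatives was 0.719. Amotl1, a member of the angiomotin family that binds junctional scaffolds, had 46.9 ± 10.7 CPM with OSM (SD, n = 5) and 71.6 ± 19.0 with PBS (SD, n = 6), a log2 fold change of -0.52 ± 0.19 (SE; edgeR unadjusted p = 0.0205, adjusted 0.955). The connexin genes Gja4 (-0.35 ± 0.13) and Gjc1 (-0.41 ± 0.18) and T-cadherin, Cdh13 (-0.21 ± 0.09, log2 fold change ± SE), had edgeR adjusted p-values of 0.955 each. Over the 22 alternative fits, Gja4 ranged from -0.48 to -0.17, Gjc1 from -0.61 to -0.28 and Cdh13 from -0.31 to -0.15, and their unadjusted p was under 0.05 in 15, 12 and 9 of these fits. Mural markers were lower with OSM in litters 1 and 3, as given above for Cgnl1, and their part in these genes was not tested. Patj, a scaffold of the apical polarity complex and the last of the 6, had at most 124 reads in any mouse and 0 in 6 of 11 mice.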

How the data were processed

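RNA of the sorted cells of 11 mice was reverse transcribed from its poly(A) tails, amplified with PCR and sequenced in single-read mode, with no molecular identifiers. The authors used STAR to align the reads to GRCm39 and featureCounts, at its standard settings, to count them on GENCODE genes. These settings drop multimapping reads and reads shared by overlapping genes. The deposited counts are whole reads per gene, without normalization. GENCODE vM39 gave symbols for 54749 of 55359 genes and not for 610. Because PCR copies count as separate reads, errors are those between mice.

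Groups and litters were taken from the labels. The count columns of mice 10 and 11, both PBS-treated and of litter 3, are headed with the mouse numbers 11 and 12, and the number in the sample title was used. Counts were analysed with edgeR 4.0.16 in R 4.3.3 (TMM, filterByExpr with a count minimum of 10, robust quasi-likelihood fit, terms for litter and treatment) on the 17050 genes that passed, with Benjamini-Hochberg adjustment and a threshold of 0.05. The interaction of litter and treatment was tested on the same genes. SE were computed from the log2 fold change and the F statistic. Differences within litters used log2 CPM with a prior count of 2. Exon lengths came from GENCODE and promoter windows from RefSeq.

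The 9 genes, the lists of other contact genes and markers, and the tests were chosen with earlier results of these data known. Named genes were the 9, their paralogs and partners (some of which are not reported here), the 3 most abundant claudins per kilobase, up to 10 other contact genes with the lowest unadjusted p under 0.05 and 1 sign in all litters, and the 3 genes most correlated with Cldn5 and with Cdh5. Alternatives were a fit without litter, DESeq2 size factors, no filter, a minimum of 10 counts in each mouse, estimation that was not robust, DESeq2 1.42.0, thinning to the smallest library, leaving out each mouse or litter, and exact permutation within litters. The litter test, the count of the 9 genes at an unadjusted p under 0.05, and the fit without mice 3 and 5 were added after seeing the data.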

Additional observations from a re-analysis of the deposited data

Results flagged for a closer look

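Opposite separation of the groups in different litters was noted for 3 genes. For Cdh5 the log2 difference between OSM and PBS was 0.238 in the first litter, 0.0457 in the second and -0.265 in the third, and the interaction of litter and treatment had an edgeR adjusted p of 0.771. Ocln had log2 differences of 0.051, -0.0735 and -0.55 in litters 1, 2 and 3 (interaction, edgeR adjusted p = 0.883), and both PBS-treated mice of litter 3 were above the single OSM-treated mouse. Esam was higher with OSM in litter 1 (log2 difference 0.104) and litter 3 (0.253) and lower in litter 2 (-0.11), with an edgeR adjusted interaction p of 0.781. Pairs of litters were not tested against each other, and 20.6% of all genes tested had groups separated in opposite directions in at least 2 litters.

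The F11r level of OSM-treated mouse 5, 440.5 CPM, stood apart from the other OSM-treated mice on the log2 CPM scale by 1 of 18 checks for a lone value, of which chance gives about 1 in 20. This library also had the lowest Marveld2 level and the highest sum of rod markers, 5686 CPM. Their part in the F11r level was not tested.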

How the results depend on the processing

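Each of the 9 log2 fold changes was recomputed under 23 alternatives, and 0 of the 9 genes were called in any of the 22 that give an adjusted p. Cldn5, Ocln, Jam2 and Cgnl1 kept their sign in all 23. Cldn5 ranged from 0.0486 to 0.289, with an unadjusted p under 0.05 in 4, and Ocln from -0.307 to -0.0119, with such a p in 0. Jam2 ranged from 0.235 to 0.48, with an adjusted p of 0.37 to 1.0, and had an unadjusted p under 0.05 in 20 alternatives. Cgnl1 ranged from -0.317 to -0.184, with an adjusted p of 0.214 to 1.0, and had an unadjusted p under 0.05 in 15. The number of the 9 genes at an unadjusted p under 0.05 was 1 in place of 2 without the litter term, without litter 1, without litter 3 and in the exact permutation test within litters. It was 3 without litter 2 (Cldn5, Jam2 and Esam, without Cgnl1), and 1 to 3 when mice were left out in turn (1 without PBS-treated mouse 4, PBS-treated mouse 7 or OSM-treated mouse 9, and 3 without PBS-treated mouse 8). The number of other contact genes at this threshold was 4 in place of 7 without the litter term, without mice 3 and 5 and without litter 3, and 5 to 8 when mice were left out in turn. The share of all genes at this threshold was taken for the main fit only (4.96%), so these counts in the alternatives have no background beside them. Signs turned for the genes with estimates near 0. Without litter 1, Tjp1 was at -0.0534 and Cdh5 at -0.0782, and without litter 3, F11r was at -0.0349 and Esam at -0.00707. When mice were left out in turn, Tjp1 ranged from -0.0156 to 0.114, F11r from -0.0354 to 0.141, Esam from -0.00739 to 0.109 and Marveld2 from -0.2 to 0.318. Marveld2 was also negative with DESeq2 size factors (-0.000419), with at least 10 counts in every mouse (-0.00216), with DESeq2 (-0.000573), without litter 1 (-0.426) and as a mean over litters (-0.117), and highest without litter 2 (0.45). With the longest transcript as length, Esam reached 1123 and Jam2 46.3 CPM per kilobase. The causes of these shifts were not tested. No paired analysis was possible because no mouse number occurs in both groups. Litter 3 held 1 OSM-treated mouse, so every result within it rests on that library.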

Other observations

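The transcript of the lipolysis-stimulated lipoprotein receptor, Lsr (angulin-1), which recruits tricellulin to the corners between cells, had 122 CPM per kilobase, beside 8.67 for tricellulin itself (Marveld2) and 1.19 for Ildr2. The third angulin, Ildr1, had 4 reads in all mice together. Lsr was among the listed contact genes and was singled out after its values were seen. Between OSM and PBS it had a log2 fold change of 0.12 ± 0.12 (SE; edgeR adjusted p = 1.0). The other listed contact genes above 100 CPM per kilobase were Mcam (182), Gja4 (154), Pecam1 (133), Ybx3 (131), Rasip1 (119) and Ctnnb1 (119), likewise named after their values were seen, and F11r with 161 lay among them.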
